A study of Mus musculus with 6 samples.

Results

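The chaperone genes most closely tied to the heat shock response were followed in cultured mouse microglia, the resident macrophages of the brain. The set was defined by gene symbol and holds 10 genes, Hspa1a, Hspa1b, Hspa8, Hsph1, Dnajb1, Hsp90aa1, Hspb1, Hspe1, Hspd1 and Bag3. All 10 were listed among the 41079 genes of the count table, and all 10 were among the 14618 genes with enough counts to be tested. The rule names the genes and uses no measured value, although it was written with earlier results of these data known. RNA-seq was performed on 3 control and 3 optimized libraries of C57Bl/6N microglia. The cells came from the brains of mice aged 1 to 3 days, were grown in mixed glial flasks fed with L-929 conditioned medium, a source of macrophage growth factor, and were shaken off those flasks. Control cells were kept in serum-free medium. Optimized cells received human TGFbeta and human IL34 together with CX3CL1, each at 100 ng/mL, and per the study's methods also cholesterol, insulin-transferrin-selenium and a collagen IV coating, which are not named in the sample labels, so that the parts of the mixture cannot be told apart. Brains were pooled for each flask, the labels tie no library to an animal, and the p-values measure the spread between these libraries.

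Heat shock proteins are molecular chaperones that keep other proteins folded or help them to refold. The transcription factor HSF1 is held inactive by chaperones in unstressed cells. When unfolded proteins draw those chaperones away, HSF1 forms trimers and binds heat shock elements, inverted repeats of the unit GAA, in the promoters of chaperone genes. HSP70 proteins bind exposed stretches of unfolded clients, J-domain proteins deliver clients and stimulate the HSP70 ATPase, HSP110 proteins exchange its nucleotide, HSP90 matures kinases and receptors, small heat shock proteins hold aggregation-prone clients, and the HSP60 and HSP10 chaperonin folds proteins inside mitochondria. Some of these genes are strongly inducible, whereas others, Hspa8 above all, are transcribed abundantly in unstressed cells.

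Letters of heat shock elements in the promoters are shown first, because the genes differed in exact matches to them. The windows ran from 250 bases before to 50 bases after the start of the canonical transcript (GRCm39, GENCODE M39). A pair of units, spelled GAANNTTC or TTCNNGAA and searched on both strands, was found in 7 of the 10 windows and in 14.3% of 21757 protein-coding promoters. The 10 genes were chosen as HSF1-dependent chaperones, so this share is a description and no test. Hspe1 and Hspd1, whose windows overlap, and Hspa1a and Hspa1b, nearly identical upstream, were counted separately, here and for the letters below. Capitals mark the heat shock element letters in the upstream bases below. Each sequence is read 5′ to 3′ on the strand of its gene.
Hspa1a, chr17:35191189-35191276, minus strand: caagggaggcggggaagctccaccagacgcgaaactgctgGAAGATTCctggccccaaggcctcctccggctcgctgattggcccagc
Hspa1b, chr17:35178271-35178358, minus strand: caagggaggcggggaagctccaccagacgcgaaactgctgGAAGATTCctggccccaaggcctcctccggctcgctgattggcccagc
Hsph1, chr5:149559807-149559874, minus strand: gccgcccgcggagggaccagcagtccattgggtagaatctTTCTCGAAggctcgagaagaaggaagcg
Hspb1, chr5:135916616-135916723, plus strand: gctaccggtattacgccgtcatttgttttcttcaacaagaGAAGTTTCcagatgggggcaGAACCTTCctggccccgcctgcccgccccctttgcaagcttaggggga
Hspe1, chr1:55127178-55127275, plus strand: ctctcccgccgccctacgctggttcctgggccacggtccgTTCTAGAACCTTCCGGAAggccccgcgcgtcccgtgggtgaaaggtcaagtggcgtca
Hspd1, chr1:55127184-55127275, minus strand: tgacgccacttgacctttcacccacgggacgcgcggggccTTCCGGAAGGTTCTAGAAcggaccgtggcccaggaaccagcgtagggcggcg
The 88 bases shown for Hspa1a and Hspa1b were identical, and the 250 bases before their start sites differed at 3 positions. Hspb1 held 2 separate pairs upstream of its start. Hspe1 and Hspd1 lie head to head with start sites 107 bases apart, so that the single 18-base element between them is printed once from each strand. The longer spelling GAANNTTCNNGAA, which overlaps the pairs, was found for these 2 genes alone among the 10 and in 0.5% of all promoters. In Dnajb1 the only pair lay after the start site, and the windows of Hspa8, Hsp90aa1 and Bag3 held neither spelling. The letters GGGCGG were present in all 10 windows, against 42.5% of all promoters, CCAAT in 6 against 39.9%, and TATAAA in none against 13.2%. These matches describe the letters in the windows only. Inexact spellings and bases outside the windows were not searched, so a window without a match does not show that an element is absent.

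**Figure D1:**
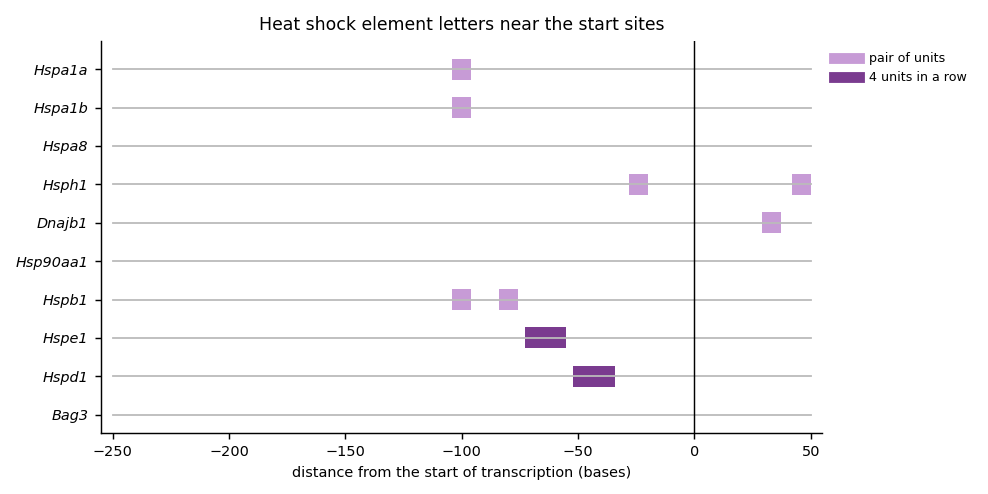
Positions of heat shock element letters (boxes) in the window around the start of each of the 10 genes, with the distance from the start of transcription in bases on the x axis. The light boxes are single pairs of units and the dark boxes, at Hspe1 and Hspd1, hold 4 units in a row. The rows of Hspa8, Hsp90aa1 and Bag3 are empty.

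The libraries held 20628148 to 27261839 counts. Optimized replicate 1 stood apart from its group. It had the lowest optimized value for 8 of the 10 genes, all but Hsph1 and Hsp90aa1, and a mitochondrial share of 0.0496% of counts against 0.0310 and 0.0341% in the other optimized libraries. Without it the calls on Hspa1a, Hspb1, Hspa8, Hsp90aa1 and Hspd1 were kept. Levels are given as CPM (the count of a gene per 1000000 counts of its library) after TMM scaling, which sets the libraries on a common scale from the bulk of the genes, and as the deposited FPKM, which also divides by gene length. Changes are log2 fold changes of optimized over control with their standard errors (SE), and the adjusted p is the Benjamini-Hochberg value of edgeR's quasi-likelihood test over all 14618 genes, with calls made at 0.05. Over all genes 29.8% were called, 14.7% higher and 15.2% lower, and the CPM ranges of the groups did not overlap in 43.9%. Of the 10 heat shock genes 2 were called higher and 3 lower, and the ranges did not overlap in those 5. The median log2 fold change was -0.07 over the 10 genes and 0.01 over all genes, and the median size without sign was 0.29 against 0.26. Hspa1a, the inducible HSP70, and Hspb1, a small heat shock protein, rose, while Hspa8, Hsp90aa1 and Hspd1 fell and Hspa1b, Hsph1, Dnajb1, Bag3 and Hspe1 were not called.

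**Figure D2:**
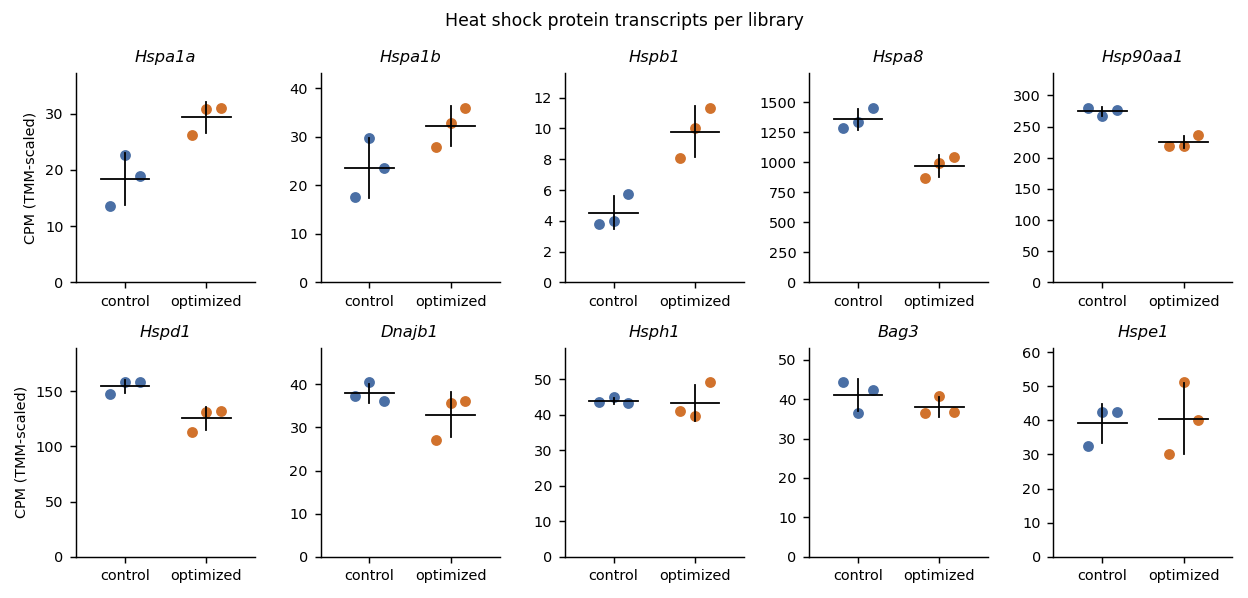
TMM-scaled CPM of the 10 heat shock transcripts (y axes start at 0) in the 3 control (blue) and 3 optimized (orange) libraries, in replicate order from left to right, with the mean (horizontal bar) and SD (vertical bar). All optimized libraries were above all control libraries for Hspa1a and Hspb1, and below them for Hspa8, Hsp90aa1 and Hspd1.

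Hspa1a and Hspa1b encode nearly the same inducible HSP70 protein from single-exon genes that lie close together on chromosome 17, at 35188166-35191132 and 35175412-35178214 of the minus strand. Hspa1a was measured at 13.6, 22.7 and 18.9 CPM in the control libraries and at 26.2, 30.9 and 31.0 CPM in the optimized libraries. The lowest optimized library was thus above the highest control library. The log2 fold change was 0.67 (SE 0.17), a 1.596-fold rise, with an adjusted p of 0.0134. Of all genes tested, 21.4% showed a larger change in size. Hspa1b was measured at 17.6, 29.9 and 23.5 CPM under control and at 27.9, 32.9 and 35.9 CPM under optimized conditions. Here control replicate 2 lay above optimized replicate 1, so that the groups overlapped. The log2 fold change of 0.45 (SE 0.18) had an adjusted p of 0.0885 and was not called, with a 95% confidence interval of 0.05 to 0.84. The call on Hspa1b depended on single libraries, since the adjusted p was 0.0289 without control replicate 2 and 0.0150 without optimized replicate 1. The difference between the changes of both genes was not tested.

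Reads cannot always be assigned to one of these genes. Of all stretches of 100 bases in the canonical transcripts, 48.6% of Hspa1a and 49.9% of Hspa1b had an exact copy elsewhere in the genome, and the longest stretch that both shared was 638 bases. How reads with several matches were counted is not given in the sources used here. The lncRNA Gm20481 also covers 564 exon bases of Hspa1a on the other strand. When the counts of both genes were added before the test, their sum rose by 0.55 on the log2 scale (SE 0.17, edgeR adjusted p = 0.0340). It was 42.0 ± 10.7 CPM in control and 61.6 ± 6.69 CPM in optimized libraries (SD over 3 libraries). Within each condition Hspa1b followed Hspa1a (r = 0.98 over the deviations of 6 libraries from their group means, given as a description of transcripts with shared reads).

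Hspa8 encodes HSC70, the constitutive HSP70 that carries most of the chaperone load in unstressed cells, and lies on chromosome 9 at 40711630-40731039 of the plus strand. It was measured at 1283, 1338 and 1452 CPM in control and at 867, 998 and 1045 CPM in optimized libraries. Every optimized library was below every control library. Hspa8 fell by 0.48 on the log2 scale (SE 0.11, adjusted p = 0.00656), which is 1.40-fold lower. Hspa8 made up most of the summed level of the 10 genes, at 0.137 to 0.146% of all counts in control and 0.0888 to 0.0990% in optimized libraries. The 10 transcripts together took 0.204 to 0.211% of counts in control and 0.143 to 0.157% in optimized libraries. Without Hspa8 the sum of the other 9 was 637 ± 15.4 CPM in control and 576 ± 41.8 CPM in optimized libraries (SD, n = 3 each). Exact copies elsewhere covered 63.8% of the 100-base stretches of Hspa8, the longest in the annotated gene Gm15459, and none of the 8 annotated genes with such a copy was listed in the tables under its current symbol.

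The balance between inducible and constitutive HSP70 was also read within each library, where scaling plays no part. Hspa1a and Hspa1b together had 2.43, 3.93 and 2.92 counts per 100 counts of Hspa8 in control and 6.24, 6.40 and 6.41 in optimized libraries. The 3 optimized libraries lay close to each other and above all controls, a 2.09-fold difference on the mean log2 ratio. The two-sided exact permutation test gave p = 0.1, the smallest value that 3 against 3 libraries allow, and 0.3 after adjustment over the 3 ratios examined, so that this design could not reach 0.05.

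HSPH1 is the HSP110 nucleotide exchange factor of HSP70, and DNAJB1 is its J-domain partner in the cytosol. Hsph1 (chromosome 5, 149537636-149560156) was measured at 43.5, 44.9 and 43.3 CPM under control and at 41.0, 39.7 and 49.0 CPM under optimized conditions. The optimized libraries lay on both sides of the controls, and the log2 fold change of -0.02 (SE 0.10, adjusted p = 0.905) had a 95% confidence interval of -0.24 to 0.20. Dnajb1 (chromosome 8, 84334811-84339820) was measured at 37.3, 40.5 and 36.1 CPM in control and at 27.0, 35.8 and 36.2 CPM in optimized libraries. Only optimized replicate 1 stood well below the controls. The log2 fold change was -0.20 (SE 0.12, adjusted p = 0.261) with an interval of -0.48 to 0.07. BAG3 links HSP70 to small heat shock proteins and to selective autophagy. Bag3 (chromosome 7, 128125283-128148705) was measured at 44.2, 36.4 and 42.4 CPM and at 36.4, 40.8 and 36.8 CPM, with overlapping groups, a log2 fold change of -0.11 (SE 0.10, adjusted p = 0.475) and an interval of -0.34 to 0.12. On the FPKM scale, which has no TMM factor, the optimized libraries lay below all controls for Dnajb1 and Bag3. The median log2 fold change of all genes was also below 0 on that scale, at -0.13 with limma on log2(FPKM + 0.1). That fit called neither gene (adjusted p = 0.0638 and 0.0796). The share of all genes without overlap in FPKM was not counted. No 100-base stretch of Hsph1, Dnajb1 or Bag3 had an exact copy elsewhere, but lncRNAs on the other strand cover 956 exon bases of Hsph1 (Gm73411) and 486 of Bag3 (4921520J07Rik), and reads of either strand cannot be told apart where counting ignored strand.

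Hsp90aa1 encodes the inducible cytosolic HSP90 (chromosome 12, 110656842-110669166). It was measured at 280, 267 and 277 CPM in control and at 219, 219 and 237 CPM in optimized libraries. The groups did not overlap and each was narrow. Hsp90aa1 fell by 0.29 on the log2 scale (SE 0.08, adjusted p = 0.0216), or 1.22-fold. The call was lost when any single control library was left out, with adjusted p of 0.0834, 0.0578 and 0.0768. Hsp90ab1, the constitutive HSP90, was 1248 ± 66.2 CPM in control and 991 CPM on average in optimized libraries (log2 fold change -0.33, SE 0.10, adjusted p = 0.0272). Hsp90aa1 had 23.0, 22.2 and 20.9 counts per 100 of Hsp90ab1 in control and 23.6, 22.3 and 22.3 in optimized libraries. This ratio overlapped between the groups (two-sided exact permutation p = 0.4, adjusted over 3 ratios 0.4). Exact copies covered 56.0% of the 100-base stretches of Hsp90aa1.

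Hspb1 encodes the small heat shock protein HSP25, which binds unfolding proteins without ATP and also acts on actin filaments. It lies on chromosome 5 at 135916760-135918417 of the plus strand. The gene was the least abundant of the group in CPM, at 3.804, 3.997 and 5.747 in control and 8.049, 10.005 and 11.319 in optimized libraries. These values rest on 87 to 235 counts per library. All optimized libraries were above all controls, and the log2 fold change of 1.11 (SE 0.20, adjusted p = 0.00194) was the largest of the 10, a 2.16-fold rise. Of all genes tested, 10.3% changed by more. Exact copies covered 61.6% of its 100-base stretches, the longest, of 552 bases, in Hsp25-ps1 and the overlapping Gm58342, which were not listed in the tables under these symbols. Leaving out any library kept the call, with log2 fold changes of 0.99 to 1.32.

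Hspd1 and Hspe1 encode HSP60 and HSP10, the ring and the lid of the mitochondrial chaperonin, and are transcribed in opposite directions from the region on chromosome 1 shown above, which carries the 18-base element. Hspd1 (55116989-55171038, minus strand) was measured at 148, 158 and 158 CPM in control and at 113, 131 and 132 CPM in optimized libraries. The groups did not overlap. Hspd1 fell by 0.30 on the log2 scale (SE 0.09, adjusted p = 0.0287), or 1.23-fold, and the call was lost without control replicate 1, 2 or 3 (0.0567, 0.107 and 0.0954) and without optimized replicate 3 (0.0564). Hspe1 (55127260-55130476, plus strand) was measured at 32.4, 42.5 and 42.5 CPM in control and at 30.3, 51.1 and 40.2 CPM in optimized libraries. The optimized libraries included both the lowest and the highest value. The log2 fold change was 0.05 (SE 0.18, adjusted p = 0.868), with a 95% confidence interval of -0.35 to 0.46. Hspe1 had 21.96, 26.93 and 26.90 counts per 100 of Hspd1 in control. In optimized libraries it had 26.7, 39.1 and 30.5, so that the ratio overlapped between the groups (two-sided exact permutation p = 0.3, adjusted over 3 ratios 0.4). The genes share 143 exon bases on opposite strands, and whether the counting used strand is not given in the sources used here. Exact copies covered 34.2% of the 100-base stretches of Hspd1 and 20.4% of those of Hspe1.

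**Figure D3:**
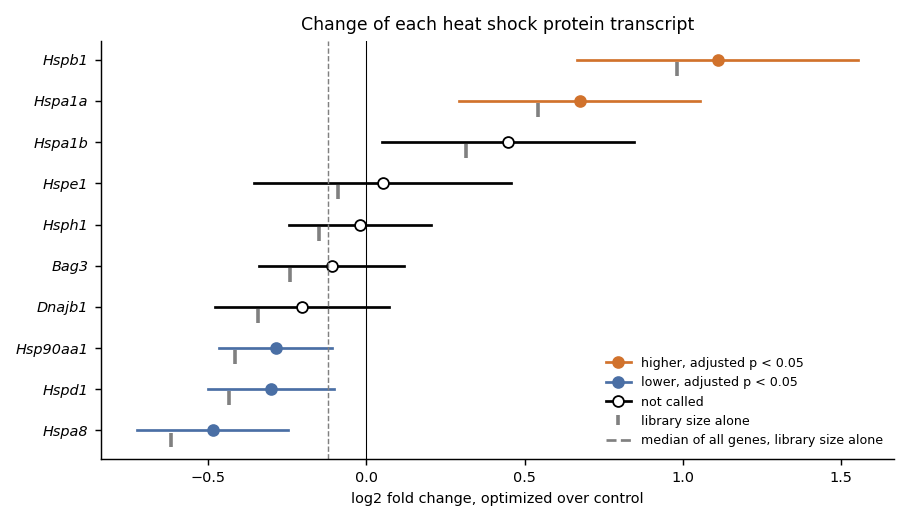
Log2 fold change of optimized over control for each gene (points) with its 95% confidence interval (lines). Orange genes were called higher, blue genes lower and open points were not called. Grey ticks give the value when libraries were scaled by size alone, under which the median of all genes (dashed line) was -0.12.

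The choice of scaling shifted all genes together. With library size alone the median log2 fold change of all genes was -0.12, the share of higher genes among all calls went from 49.1% to 32.3%, and Dnajb1 was called lower (log2 fold change -0.34, adjusted p = 0.0477). The calls on Hspa1a (0.54), Hspb1 (0.98), Hspa8 (-0.62), Hsp90aa1 (-0.41) and Hspd1 (-0.43) had the same direction and stayed past the threshold. Hspe1 changed sign to -0.09, which was 0.03 above the median of all genes on that scale. The median of the 10 genes was 0.07 below that of all genes under both scalings.

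Per gene length, Hspa8 was the most abundant transcript, with 655 ± 20.9 FPKM in control and 425 ± 36.3 FPKM in optimized libraries (SD, n = 3 each). Hsp90aa1 followed with 97.8 ± 3.54 FPKM in control, then Hspd1 with 60.6 ± 2.44, Hspe1 with 51.7 ± 7.18 and Bag3 with 16.0 ± 1.53 FPKM, each without overlap with the next. Below these, neighbours in the order overlapped, from Dnajb1 (11.96 ± 1.08) through Hspa1b (8.55 ± 2.31), Hsph1 (6.95 ± 0.36), Hspa1a (6.68 ± 1.71) to Hspb1 (5.05 ± 1.00 FPKM). The mean FPKM of the highest gene was 130 times that of the lowest in control and 68.2 times in optimized libraries. In optimized libraries Hspa1b (10.6 ± 1.26), Hspb1 (9.99 ± 1.63), Hspa1a (9.67 ± 0.72) and Dnajb1 (9.40 ± 1.29 FPKM) lay together, with Hsph1 lowest at 6.23 ± 0.86 FPKM.

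The genes around the 10 were taken from lists by role. Of 73 other chaperones and regulators 65 were tested, 3 were called higher and 12 lower, against 14.7% and 15.2% of all genes, and the median log2 fold change was -0.07. None of the 4 tested genes of the HSF family and its regulators was called by edgeR. Hsf1 itself was 29.7 ± 2.72 CPM in control and 29.3 ± 1.94 CPM in optimized libraries (log2 fold change -0.02, SE 0.10, adjusted p = 0.905). Hsf2 had the lowest value of this list, -0.07, and Hsf4 the highest, 0.48, neither called.

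**Figure D4:**
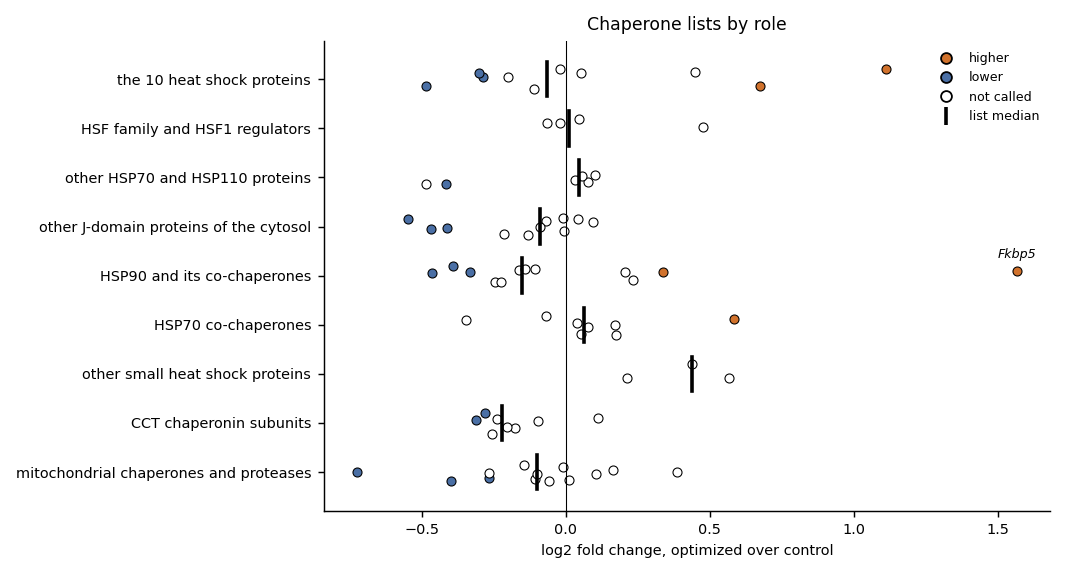
Log2 fold change of optimized over control (x axis) for each tested gene, grouped by role (rows). Orange genes were called higher, blue lower and open points not called, and the black bars are the list medians. Fkbp5, at 1.57, stands to the right of all other chaperones.

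Among HSP90 and its co-chaperones 2 of 12 genes were called higher and 3 lower, against 14.7% and 15.2% of all genes. Fkbp5, an immunophilin that binds HSP90 in steroid receptor complexes and is a known glucocorticoid target, rose from 28.8 ± 3.57 to 85.3 CPM on average (log2 fold change 1.57, SE 0.11, adjusted p = 3.04e-06), the only gene of these lists with a change of at least 1 on the log2 scale. Unc45a, a myosin chaperone, rose by 0.34 (adjusted p = 0.0376), a call that was lost in 9 of 16 other settings, among them library size alone (0.20, adjusted p = 0.202), no filter on low counts and all limma fits on FPKM. With library size alone 1 gene of this list was called higher and 5 lower, where 10.4% of all genes were called higher and 21.7% lower. Ahsa1, the activator of the HSP90 ATPase, and Stip1, the adaptor that joins HSP70 to HSP90, fell by 0.46 (adjusted p = 0.00704) and by 0.39 (adjusted p = 0.00846), beside Hsp90ab1. Of the 8 HSP70 co-chaperones, Bag1, a nucleotide exchange factor, rose by 0.58 (adjusted p = 0.00224) and the other 7 were not called, Bag4 with the lowest value at -0.35.

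Among the other J-domain and HSP70 genes the few calls were all lower, where 15.2% of all genes were called lower and 14.7% higher. Of 11 other J-domain proteins of the cytosol 3 fell, Dnajb4 (-0.55), Dnajb5 (-0.47) and Dnaja1 (-0.41), and the highest value was that of Dnajc5, at 0.09 and not called. Of 6 tested other HSP70 and HSP110 genes, Hspa14, which works at the ribosome, fell by 0.42, and the others were not called, from -0.48 for the sparse Hspa1l to 0.10 for Hspa12a. Only 3 of the 7 other small heat shock protein genes had enough counts to be tested. Cryab (0.44), Hspb6 (0.57) and Hspb8 (0.21) were not called, but Cryab passed the threshold without optimized replicate 1. Whether the change of Hspb1 differed from theirs was not tested.

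Of 8 subunits of CCT, the chaperonin of the cytosol that folds actin and tubulin, Cct5 (-0.31) and Cct3 (-0.28) were called lower, and the list ran up to 0.11 for Cct2. For this list and the mitochondrial list below, the share over all genes was 15.2% lower and 14.7% higher. The count of lower calls depended on the setting, with 0 of 8 when any control library was left out, 4 with DESeq2, 6 with library size alone, where 21.7% of all genes were called lower, and 7 with limma on FPKM, where 22.3 to 25.6% were. Of 13 mitochondrial chaperones and proteases 3 fell, the protease Htra2 by 0.72 (adjusted p = 0.000205), the mitochondrial HSP70 Hspa9 by 0.40 (adjusted p = 0.00391) and the mitochondrial HSP90 Trap1 by 0.27 (adjusted p = 0.0276), and Hscb had the highest value at 0.38, not called. Leaving out 1 library ended the calls on Hsp90ab1, Trap1 and Cct5 (any control library or optimized replicate 3), on Cct3 (any library but optimized replicate 3), on Dnajb5 (control replicate 1 or 2 or optimized replicate 3) and on Unc45a (control replicate 2 or 3 or optimized replicate 2 or 3), with adjusted p up to 0.101 for Dnajb5, 0.110 for Trap1, 0.0987 for Hsp90ab1, 0.165 for Cct5, 0.153 for Cct3 and 0.149 for Unc45a when 1 library was left out.

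The genes whose levels were most like those of Hspa1a over the 6 libraries, among 10483 others at a mean of at least 5 CPM, were Dhrs7 (Pearson r = 0.995), Igfbp3 (0.994), Yaf2 (0.988), Hbp1 (0.987) and Fam210b (0.986). These values describe 6 points in 2 groups that share depth and scaling, and Hspa1b had 0.969.

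The labelled cell type was checked with 8 microglia markers, all of them tested, which summed to 7977 to 8606 CPM in control and 12441 to 15940 CPM in optimized libraries. Of the 8 markers 5 were called higher and 2 lower, the lower calls being lost without control replicate 1 for Csf1r (adjusted p = 0.0523) and without control replicate 2 or 3 or optimized replicate 3 for Aif1 (up to 0.146). Markers of other cells were sparse, at 4.10 to 5.30 and 5.59 to 6.00 CPM for 6 neuron genes and 30.6 to 33.5 and 21.4 to 25.0 CPM for 6 astrocyte genes. In each of these lists 1 gene was called by edgeR. The neuron gene Nefl rose by 2.30 on the log2 scale (adjusted p = 0.00189), but by 0.29 with limma on log2(FPKM + 1). Only 4 of the 6 neuron genes had enough counts to be tested, with a list median of 0.25. The astrocyte gene Aldh1l1 fell by 1.83 (adjusted p = 3.76e-06). Of the 6 astrocyte genes 3 were below 0, the list median was -0.07, and Gja1 was highest at 0.49, not called. The 6 oligodendrocyte genes summed to 188 to 208 and 197 to 237 CPM (Cnp lower, and Mbp higher with the call lost in 9 of 16 other settings). The 6 fibroblast genes summed to 52.3 to 59.9 and 30.7 to 90.5 CPM. Of these only Postn was below 0 (-1.55, called lower). The fibroblast list median was 0.58, with Col1a2 highest at 1.01 and not called, but 3 genes were called higher without optimized replicate 2. The 6 endothelial genes summed to 78.8 to 94.7 and 271 to 350 CPM (1 higher), nearly all of it Flt1, at 83.0 and 298 CPM on average. No list had a marker at 0 in all libraries. The part of these cells and of the mitochondrial share in the changes of the heat shock genes was not tested, and fewer cells of a type and less RNA per cell cannot be told apart in such bulk samples.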

How the data were processed

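Paired-end sequencing of 6 libraries was done by a service provider, and the reads were aligned with HISAT2 to mm39 (GRCm39) and counted with featureCounts. Versions, annotation, strand setting, read length and the treatment of reads with several matches are not given in the sources used here. The tables that the authors deposited hold raw counts per gene and FPKM, per the file headers, with all columns matched to samples. From the counts, edgeR 4.0.16 (R 4.3.3) was used with filterByExpr, TMM factors and the quasi-likelihood test, comparing optimized with control without covariates, since the paper's methods name no test for these data. FPKM values served for levels and, as log2(FPKM + 1), for limma 3.58.1. DESeq2 1.42.0, other scalings and filters, a replicate block and leaving out each library were alternatives. In data simulated for this comparison, with 14467 genes tested by edgeR, 29.9%, 94.0% and 100% of genes changed by 0.5, 1 and 2 on the log2 scale were recovered, and 3.87% of calls were false. The simulation gave every gene the same dispersion (0.0164) and changed 67, 67 and 66 genes at these sizes. Far more genes were called in the real data, so these rates need not hold there. Ratios of counts within libraries were compared by two-sided exact permutation tests with scipy 1.17.1. Promoters, loci and exact copies were read from GRCm39 with GENCODE M39. Same-numbered libraries are not stated to be paired, and the correlations of their deviations were mixed (0.526, -0.0632 and 0.318), so whether the numbers pair the cultures is not known. Counts of libraries within a group differed beyond sampling noise (chi-square per degree of freedom 10.7 to 78.4).

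The 10 genes and all lists were chosen with earlier results of these data known. Named were the 10 genes, the highest and lowest gene of each list, Hsf1, Hsp90ab1, Hspa9, genes called with a change of at least 1 on the log2 scale, and the 5 genes most like Hspa1a. Other genes called in a list were named after their values were seen.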

Additional observations from a re-analysis of the deposited data

How the results depend on the processing

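The calls on Hspa1a, Hspb1 and Hspa8 kept their direction and their side of the threshold under all 16 alternatives run for each, with log2 fold changes of 0.49 to 0.85, 0.86 to 1.32 and -0.63 to -0.41. The highest adjusted p, from edgeR with 1 library left out, were 0.0476 for Hspa1a, 0.0164 for Hspb1 and 0.0319 for Hspa8. The call on Hspa1a thus lay close to the threshold. For Hspa1a 1 of the 16 alternatives tested its sum with Hspa1b. That alternative left the counts of Hspb1 and Hspa8 unchanged and so is no check on them. The median of the 10 genes went from -0.07 to -0.20 with library size alone, -0.19 with limma on log2(FPKM + 1), also at a mean FPKM of at least 1, and -0.20 with limma on log2(FPKM + 0.1), settings that also shifted the median of all genes, by construction without TMM factors. Over all genes, higher calls went from 2142 to 1176 and lower calls from 2218 to 2962 with limma at a mean FPKM of at least 1, which tested 11572 genes, and to 1472 and 3267 with limma on log2(FPKM + 1) without that filter. Leaving out 1 library gave 1 to 3 of the 10 genes called lower, with fewer samples. Hspe1, never called, turned to -0.090 with library size alone and to -0.11 with each of the limma settings, and ran from -0.16 to 0.22 when 1 library was left out, while Hsph1, never called, ran from -0.12 to 0.028. Hspa1b was called without the filter on low counts (0.43, adjusted p = 0.0429); the cause was not tested. With a replicate block Hspa1b was also called (0.47, adjusted p = 0.0122), and over all genes 2401 were called higher and 2523 lower by the block fit; not every library correlated best with its own number, so the numbers are not taken to pair the libraries. Depth limits Hspb1 most, with 87 to 235 counts per library.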

Other observations

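Immediate early genes, which respond within minutes to handling and to growth factors, were read beside the heat shock genes. Of 10 tested, 3 were called higher and 4 lower by edgeR, against 14.7% and 15.2% of all genes. Fosb rose by 1.99 on the log2 scale (0.472 to 1.89 CPM, adjusted p = 0.000693) on 10 to 13 counts per control library and 39 to 43 per optimized library, and by 0.38 with limma on log2(FPKM + 1), whose pseudocount shrinks the change of low genes. Junb rose by 0.53 and Egr1 by 0.51. Dusp1, a phosphatase of MAP kinases, fell by 1.16 on the log2 scale (21.2 to 9.50 CPM, adjusted p = 2.98e-05), Fos by 0.97, Jun by 0.39 and Zfp36 by 0.31. The call on Junb was lost without control replicate 2, and that on Zfp36 when any 1 control library was left out or without optimized replicate 3. Their relation to the heat shock genes was not tested.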
